A study of Mus musculus with 4 samples.

Results

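Bone morphogenetic protein (BMP) signalling and the Id genes were examined in mouse R1 embryonic stem (ES) cells and extraembryonic endoderm (XEN) cells through 10 genes: the ligands Bmp2 and Bmp4, the receptor Bmpr1a, the signal transducers Smad1 and Smad5, the inhibitory Smad6, and Id1, Id2, Id3 and Id4. The genes were listed by name and every probe set annotated to exactly 1 of them was taken, which gave 14 probe sets for 10 of the 8251 genes on the Affymetrix MG_U74Av2 array. Of the 14, 11 probe sets of 9 genes reached the background limit of 27.3 units on at least 1 array and were tested. The limit is the 40th percentile of all values and is not a detection call. A Smad5 probe set and a pair of Bmp2 probe sets stayed under it on all 4 arrays.

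Total RNA from 4 cultures was hybridised, 1 array each. The ES sample was 1 culture of undifferentiated R1 cells with LIF on gelatin. The XEN group held IM8A1-I, which is the IM8A1 line (PO strain, passage 27) on gelatin in 70% EMFI-CM, IM8A1-II, which is that line at that passage after 4 days on tissue culture plastic in RPMI 1640 and 20% FBS, and XEN1-3 (ICR strain, passage 18) on gelatin in 70% EMFI-CM. The labels name no genotype change, and nothing in them says that the IM8A1 arrays came from separate derivations, so p-values measure the spread between these 3 cultures of 2 lines, with the single ES culture assumed to vary likewise.

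BMP ligands bind a complex of type I and type II serine/threonine kinase receptors. The type I receptor phosphorylates Smad1 and Smad5, which enter the nucleus with Smad4 and switch on target genes, among them the Id genes and the inhibitory Smad6. Id proteins have a helix-loop-helix domain without a DNA-binding basic region and keep bHLH factors from DNA. In mouse ES cells BMP4 with LIF supports self-renewal through Id genes, and in the early embryo BMP signals act in the visceral endoderm.

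Cell identity matched the labels. All 9 pluripotency markers lay at or above the limit in ES and 1 of 9 (Fgf4) in each XEN array, with summed signals of 21094 units in ES and 206 to 241 in XEN. All 11 extraembryonic endoderm markers were at or above it in each XEN array, with sums of 28416 to 42047 against 1057 in ES. The run records give the ES array another chip lot and run day than the XEN arrays, so batch and cell type cannot be told apart. The run record of XEN1-3 holds a message that fluid was not detected and lists no wash and stain steps.

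Bmp4 fell in XEN cells by both of its probe sets, whereas the values of Bmp2 were higher in all 3 XEN arrays without passing the test. In limma's moderated test 2 of the 11 member probe sets, both of Bmp4, were lower and 0 were higher in XEN at an adjusted p under 0.05 (2 higher, those of Bmp2 and Id2, and the same 2 lower with an unadjusted p below 0.05). Over all 8582 tested probe sets 5.05% were lower and 5.58% higher. The 2 calls belong to 1 gene, so 1 of the 9 member genes tested was called.

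The brighter Bmp4 probe set, 93455_s_at, read 238 units in ES and 59.0, 67.5 and 84.7 in the XEN arrays. XEN values are given throughout as IM8A1-I, then IM8A1-II, then XEN1-3. The ES value lay well above a tight XEN group (70.4 ± 13.1, SD, n = 3), and the difference was -1.63 ± 0.31 in log2 (SE, limma adjusted p = 0.0304). The log2 scale is that of signal plus an offset of 10.5 units, which shrinks differences of dim probe sets. The suffix s marks probes that can match more than 1 transcript. The second probe set, 93456_r_at, read 168 units in ES and 4.9, 4.4 and 15.5 in the XEN arrays, all under the limit. Bmp4 was at least 6.17-fold lower in XEN by this probe set (log2 difference -3.30 ± 0.46, adjusted p = 0.0144). The suffix r marks a probe set for which some probe selection rules were relaxed.

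The size of the Bmp4 fall thus differed between its probe sets, and their ranks among the XEN arrays were alike only in XEN1-3 being highest. The call of 93455_s_at was lost when IM8A1-I was left out (adjusted p = 0.0784), when IM8A1-II was left out (0.0744), with the IM8A1 arrays averaged first (0.0548), with a floor at the limit in place of the offset (0.0723) and when dim probe sets were kept in the test (0.0546). That of 93456_r_at held in all 11 alternatives, with an adjusted p of 0.00211 to 0.0419. The lowest, 0.00211, came with the floor, which made its XEN values equal, so that alternative is no check of this call.

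Bmp2 encodes a ligand that in the embryo is made by the visceral endoderm. Its brightest probe set, 102559_at, read 4.0 units in ES and 62.9, 44.0 and 22.6 in XEN. ES was the lowest array, but XEN1-3 was under the limit too, and the highest XEN value was at least 2.30-fold above the lowest. The difference was 1.81 in log2 (95% confidence interval 0.55 to 3.08, limma adjusted p = 0.0798), or at least 1.45-fold against the limit. Without XEN1-3 the adjusted p was 0.0189, and with a floor at the limit it was 0.549. Fits without XEN1-3, here and below, leave only the IM8A1 cultures in XEN, so their p-values measure the spread within that line alone. The other Bmp2 probe sets read 0.2 and 5.9 units in ES and 4.7 to 17.2 in the XEN arrays, below the limit throughout.

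**Figure D1:**
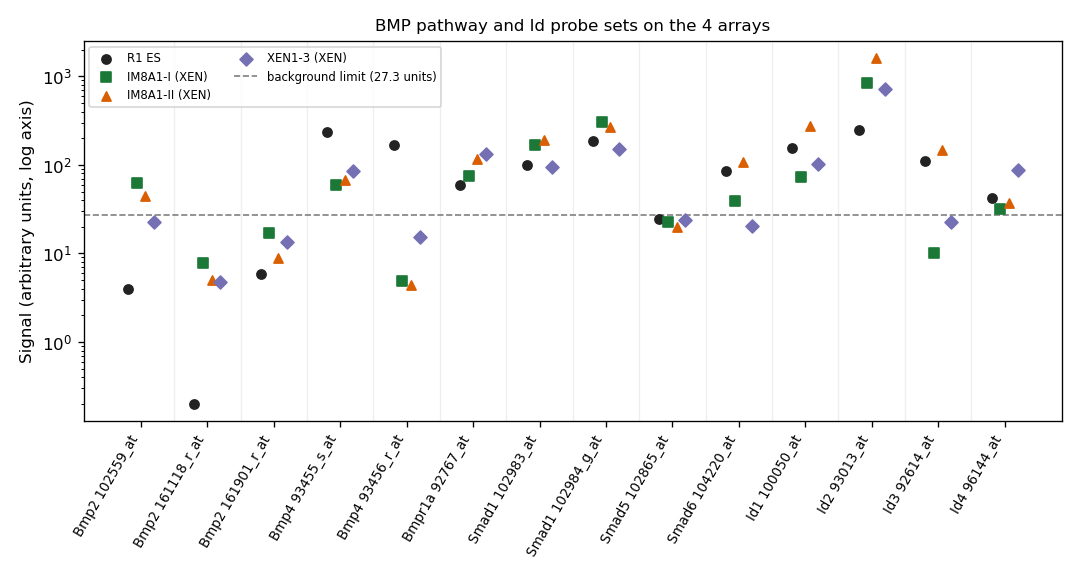
Signal of the 14 member probe sets (log axis, arbitrary units) on the R1 ES array and the 3 XEN arrays, with the background limit of 27.3 units as a dashed line. Both Bmp4 probe sets are highest in ES, and Smad6, Id1, Id2, Id3 and Smad1 102983_at are highest in IM8A1-II.

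The genes that carry the signal into the nucleus showed no call. Bmpr1a, the type I receptor for BMP2 and BMP4, read 59.2 units in ES and 75.1, 117 and 134 in XEN. ES was the lowest array, by little against IM8A1-I, and the log2 difference was 0.74 with a 95% interval of -0.19 to 1.67 (limma adjusted p = 0.25). That interval includes no change and a rise of more than 2-fold.

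Smad1, a transducer phosphorylated by BMP receptors, had a pair of probe sets of the same target sequence. One, 102983_at, read 99.9 units in ES and 169, 191 and 93.5 in XEN. The other, 102984_g_at, read 185 in ES and 308, 266 and 152. In both, the IM8A1 arrays lay above ES and XEN1-3 slightly below it, so that ES fell within the XEN range. Log2 differences were 0.49 (95% interval -0.57 to 1.56, limma adjusted p = 0.487) and 0.31 (-0.76 to 1.38, 0.674), and without XEN1-3 they were 0.78 and 0.60. Smad5, a second transducer of the same kind, read 24.6 units in ES and 22.5, 19.9 and 24.1 in the XEN arrays, all just under the limit, and was not tested.

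ES lay below all 3 XEN arrays in 3 of the 11 tested member probe sets (Bmp2, Bmpr1a and Id2), against 38.9% of all tested probe sets. It lay above all 3 in 2 (both of Bmp4), against 34.0%. These shares are not above the background.

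**Figure D2:**
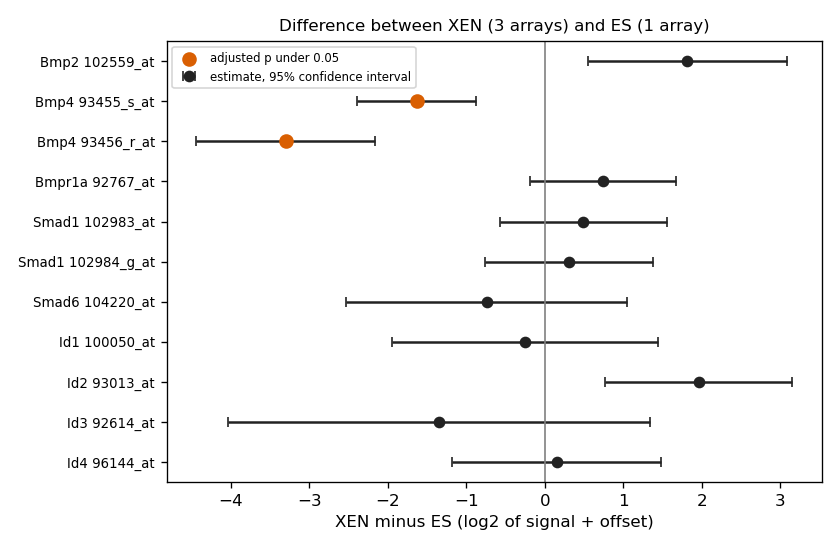
Difference between XEN (3 arrays) and ES (1 array) for the 11 tested member probe sets, in log2 of signal plus offset, with 95% confidence intervals from limma. Only the 2 Bmp4 probe sets, in orange, have an adjusted p under 0.05. The intervals of Id1, Id3, Id4, Smad1, Smad6 and Bmpr1a include 0.

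The sequences just upstream of Smad6, Id2 and Id3 are shown because these genes were highest in IM8A1-II. Smad1 was highest there by 102983_at but not by 102984_g_at, and its window is not shown. The sequences come from RefSeq's annotation of GRCm38.p6, whose promoter table held 8 of the 10 genes (Id1 and Bmp2 had no entry). They run from 246 bases before the gene start to 4 bases after it. The window was set after its letters were seen so as to hold a whole Smad6 match. Capitals mark 3 motifs searched on both strands: GTCTAGAC, the palindromic Smad box, CAGAC, a Smad half-site, and GGCGCC, a GC-rich element known to bind Smad1 and Smad5. No 2 matches overlapped.
Smad6 (chr9:64022056-64022305, minus strand): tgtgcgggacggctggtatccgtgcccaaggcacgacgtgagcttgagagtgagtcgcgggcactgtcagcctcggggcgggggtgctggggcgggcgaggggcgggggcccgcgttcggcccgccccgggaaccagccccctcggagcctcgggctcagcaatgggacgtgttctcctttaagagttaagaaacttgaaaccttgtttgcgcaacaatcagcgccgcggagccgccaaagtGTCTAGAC
Id2 (chr12:25096089-25096338, minus strand): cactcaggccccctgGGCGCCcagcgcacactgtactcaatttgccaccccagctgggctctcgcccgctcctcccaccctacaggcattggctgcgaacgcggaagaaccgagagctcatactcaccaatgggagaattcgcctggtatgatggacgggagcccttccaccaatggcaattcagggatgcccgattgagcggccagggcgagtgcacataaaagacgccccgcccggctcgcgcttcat
Id3 (chr4:136143576-136143825, plus strand): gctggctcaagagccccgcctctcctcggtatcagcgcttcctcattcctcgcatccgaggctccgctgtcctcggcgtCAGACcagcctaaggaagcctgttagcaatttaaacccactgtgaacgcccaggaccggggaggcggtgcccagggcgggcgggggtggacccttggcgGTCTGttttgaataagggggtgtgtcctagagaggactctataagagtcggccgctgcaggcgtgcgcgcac

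Smad6 held GTCTAGAC from position -4 to 4 around the start, counted without a position 0, a match that the choice of window fixed. In the table's full windows of 300 bases 0.211% of 27025 genes, 1 window each, held it. Id2 held GGCGCC from -231 to -226, as did 9.56% of genes somewhere in the shorter window, and Id4 and Bmpr1a held it at -148 to -143 and -198 to -193. Id3 held CAGAC at -167 to -163 and, on the other strand, at -68 to -64, and 42.4% of genes held at least 1. The Bmp4 and Smad1 windows held none of the 3, and of the 3 Smad5 starts 1 had GGCGCC and 1 CAGAC. A match is a run of letters and shows no binding, and a window without a match shows nothing about the factor.

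Smad6, which blocks BMP receptor signalling and is itself switched on by it, Id1 and Id3 varied more within the XEN group than between XEN and ES. Smad6 read 84.6 units in ES and 38.9, 108 and 20.6 in XEN. The ES value lay inside the XEN range, which spanned at least 3.97-fold, and the log2 difference of -0.74 had a 95% interval of -2.54 to 1.05 (limma adjusted p = 0.533). It was -1.28 without IM8A1-II and -0.31 without XEN1-3. Id1 read 155 units in ES and 72.5, 278 and 103 in XEN. ES again lay between the IM8A1-II array and the other XEN arrays, with a difference of -0.25 (-1.95 to 1.44, 0.841) that turned to 0.12 without IM8A1-I and was -0.77 without IM8A1-II.

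Id3 had the widest XEN range among the tested members. It read 111 units in ES and 10.1, 149 and 22.4 in XEN, so that it was under the limit in the XEN cultures in EMFI-CM and above the ES level in the culture on plastic. The highest XEN value was at least 5.45-fold above the lowest, since the lowest was under the limit. The log2 difference between XEN and ES was -1.35 (95% interval -4.04 to 1.34, limma adjusted p = 0.452), which the spread between the XEN cultures leaves undetermined in direction. It was -2.22 without IM8A1-II (adjusted p = 0.0655) and -0.74 without IM8A1-I.

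Id2 had the highest XEN to ES ratio among the Id genes. It read 245 units in ES and 842, 1590.0 and 710.5 in XEN, a mean of 1047 ± 474 (SD, n = 3). All 3 XEN values were well above ES, with a difference of 1.96 in log2 (95% interval 0.77 to 3.15), but limma's adjusted p was 0.0581. It was 0.0162 without XEN1-3 and 0.160 with a floor at the limit. Id4, best known from neural progenitors, read 42.1 units in ES, 31.7 and 36.7 in the IM8A1 arrays and 88.6 in XEN1-3. Only XEN1-3 lay above ES, and the difference was 0.15 (-1.19 to 1.48, limma adjusted p = 0.886), or -0.24 without XEN1-3.

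The IM8A1 line differed between its 2 cultures in Smad6 and in Id genes, with higher values in IM8A1-II. Substrate and medium changed together between these cultures, so their parts cannot be told apart. Set against IM8A1-I, IM8A1-II was at least 2-fold higher on the log2 scale in 3 of the 11 tested member probe sets, those of Smad6, Id1 and Id3, against 3.51% of all 8582 tested probe sets. It was at least 2-fold lower in 0, against 2.47%. There was 1 array per condition, so these differences have no replicate check and no test was made.

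The log2 difference between IM8A1-II and IM8A1-I was 2.95 for Id3, 1.79 for Id1 and 1.27 for Smad6. On the linear scale Id3 was at least 5.45-fold higher, its IM8A1-I value being under the limit, and the ratios of Id1 and Smad6 were 3.83 and 2.79. Id2 came next at 0.91, a linear ratio of 1.89, and Bmpr1a at 0.57. The tested ligand, Smad1 and Id4 probe sets differed by -0.43 to 0.17. Smad6, Id1 and Id3 were also at least 2-fold above XEN1-3 in IM8A1-II, by 1.94, 1.34 and 2.27 in log2. Of all tested probe sets 1.43% were at least 2-fold above both other XEN arrays, a cut chosen after the values were seen. With an offset of the 50th percentile Smad6 differed by 0.84 between the IM8A1 arrays and left 2 at 2-fold.

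XEN1-3 and IM8A1-I, different lines in the same medium with 1 array each, were set side by side in the same way. They also differed in strain, passage and run record, so these and the line cannot be told apart. XEN1-3 was at least 2-fold higher in 1 member probe set, that of Id4 (1.23 in log2), against 4.58% of all tested probe sets. It was at least 2-fold lower in 1, Bmp2 102559_at (-1.15), against 4.53%. Id1 and Id3 differed by 0.45 and 0.68 and Smad6 by -0.67, so on this comparison the 3 genes did not share a direction.

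**Figure D3:**
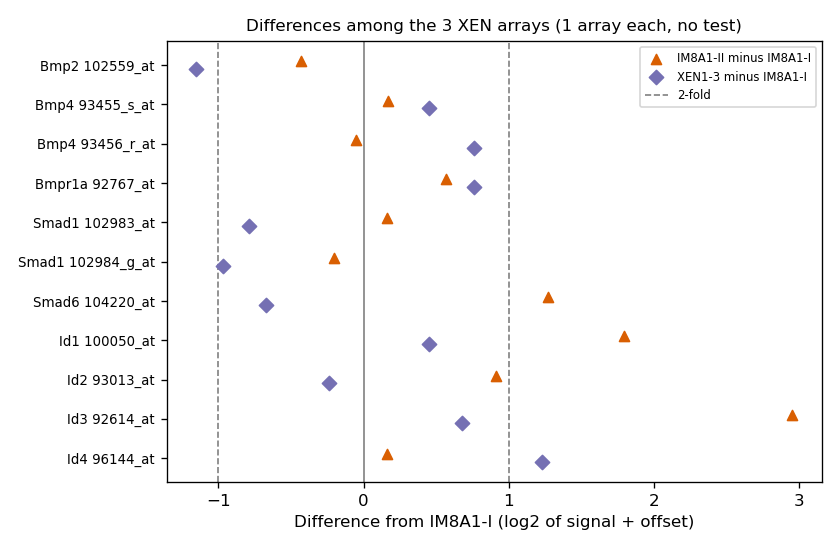
Differences of IM8A1-II (triangles) and XEN1-3 (diamonds) from IM8A1-I for the 11 tested member probe sets, in log2 of signal plus offset, 1 array each. Dashed lines mark 2-fold. Id3, Id1 and Smad6 lie beyond 2-fold in IM8A1-II at 2.95, 1.79 and 1.27, while XEN1-3 lies between -1.15 and 1.23.

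Some markers of other cell types and of the XEN state also differed between IM8A1-II and IM8A1-I. The summed signal of 9 germ layer genes was 205, 377 and 159 units in the XEN arrays (272 in ES), mostly through the progenitor filament gene Nes at 108, 282 and 29.5 units. That of 15 fibroblast genes was 677, 891 and 944 (1298 in ES). Of the 15, 5, 6 and 6 lay at or above the limit. Col1a1 (68.0, 95.5 and 73.0 units), Col1a2 (352, 353 and 403), Twist2 (69.3, 39.8 and 151) and Tagln did so in all 3. Pdgfrb (33, 19.1 and 13.6) did so in IM8A1-I only, and Lum reached 28.6 in XEN1-3. Others, among them Thy1, Col3a1, Dcn and Postn, were under it in all 3. The smooth muscle genes Tagln (37.7, 214 and 36.1) and Acta2 (7.3, 40.6 and 163) and the gene S100a4 (16.0, 31.3 and 7.0) read higher in IM8A1-II than in IM8A1-I. The sum of 9 trophoblast genes was 133 to 149 in XEN (993 in ES, mostly through Tfap2c at 767). Of the XEN markers, Sox7 read 1339, 225 and 981 units and the endocytic adaptor Dab2 2334, 4937 and 1925. Sox7 and Dab2 differed most between the IM8A1 arrays, and all 11 XEN markers lay at or above the limit in each XEN array. The others changed less, from Gata6 (1973, 1086 and 2468) and Gata4 (1196, 899 and 1090.5) to Foxa2 (512, 520.1 and 552) and Sparc (7284, 7376 and 5924). The part of these differences in the Id and Smad6 values was not tested, and in bulk RNA fewer cells with a transcript and less of it per cell cannot be told apart.

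The rest of the pathway was read from 7 lists of 95 gene entries, of which 72 were on the array and 49 were tested. Of these 4 were higher in XEN, 4 were lower and 41 did not pass limma's test, against 5.74% higher and 5.23% lower among all 6344 genes tested by their brightest probe set. All the calls fell among ligands, receptors, antagonists and Smad regulators.

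Of 13 other ligands 9 were on the array, and 7 of them were under the limit everywhere. Bmp6, a BMP that signals through Acvr1, read 16.6 units in ES and 143, 158 and 131 in XEN. The XEN arrays were close together, and it was at least 5.26-fold higher (limma adjusted p = 0.00866). A second Bmp6 probe set rose as well, from 10.3 to 50.6 ± 11 units (adjusted p = 0.0499), but it passed in 5 of 11 alternatives (0.041 to 0.205) and not without IM8A1-I (0.0889) or IM8A1-II (0.127). Gdf3, a ligand and BMP inhibitor of pluripotent cells, fell from 304 units to 15.6, 10.8 and 12.0, at least 11.2-fold (adjusted p = 0.00503).

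Of 7 tested receptors and co-receptors, 1 rose and 2 fell. Acvr1, a type I receptor of the BMP group, read 4.0 units in ES and 65.0, 64.3 and 92.8 in the XEN arrays, at least 2.67-fold higher (limma adjusted p = 0.0136, and 0.103 with a floor at the limit). Tdgf1, the Nodal co-receptor Cripto, fell from 222 to 21.7, 11.0 and 3.5 units (at least 8.15-fold, adjusted p = 0.0177). Eng, the co-receptor endoglin, fell from 190 to 68.0, 56.0 and 37.0, but its adjusted p of 0.0448 was above 0.05 in 6 of 11 alternatives (0.0195 to 0.12 over all), among them leaving out IM8A1-I (0.0674) or IM8A1-II (0.0898). The type II receptor genes Bmpr2 and Acvr2b read 23.3 and 595 units in ES and 52.3 ± 8.13 and 262 ± 123 in XEN, with adjusted p-values of 0.135 and 0.156. Without XEN1-3 Acvr2b passed as lower (adjusted p = 0.0136), judged by the spread within the IM8A1 line only.

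The extracellular antagonists and modulators gave 2 rises and 0 falls among 7 tested. Nog, which encodes the BMP-binding protein noggin, read 15.6 units in ES and 351, 121 and 263 in XEN. It was lowest among the XEN arrays in IM8A1-II, with 1 array per condition. The log2 difference of Nog from IM8A1-I was -1.46. It was the only 1 of the 7 at least 2-fold lower there, against 2.47% of all tested probe sets. Any link between Nog and the Smad6 and Id values was not tested. Nog rose by 3.17 ± 0.57 (SE, limma adjusted p = 0.0281), at least 8.18-fold, and passed in 7 of 11 alternatives, with an adjusted p of 0.0519 when IM8A1-I was left out and 0.132 with a floor at the limit. Fst, encoding follistatin, which binds activin and some BMPs, stood at 27.0 units in ES and 3475, 2990.2 and 1869 in XEN (adjusted p = 0.0022). The metalloprotease Bmp1, which cleaves the antagonist chordin, read 46.4 in ES and 118 ± 20.9 in XEN (adjusted p = 0.0723), and the dim antagonist gene Nbl1 27.9 and 11.5 ± 1.67 (0.225).

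Other Smads gave 0 calls among 3 tested (1 lower, Smad7, with an unadjusted p below 0.05). Smad7, the inhibitory Smad of both the TGF-beta and BMP branches, read 332 units in ES and 190, 154 and 118 in XEN (limma adjusted p = 0.0972). Unlike Smad6, it was not higher in IM8A1-II than in IM8A1-I. Smad2, of the activin branch, read 151 in ES and 521, 515 and 208 in XEN (0.193, and 0.0102 without XEN1-3). Among 8 intracellular regulators Tgif1, a Smad corepressor, fell from 1330.2 to 441, 286 and 232 units (adjusted p = 0.0328, but 0.0759 when IM8A1-II was left out and 0.107 with a floor at the limit). The corepressor Ski read 381 and 200.3 ± 37.6 (0.124) and Xiap, an adaptor of the BMP receptor, 14.7 and 41.1 ± 8.99 (0.127).

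Genes known to respond to BMP other than the Id genes and Smad6 gave 0 calls among 11 tested (1 lower and 0 higher with an unadjusted p below 0.05), with a median log2 difference of -0.12 against 0.03 for all genes tested. The homeobox gene Dlx3 read 49.5 units in ES and 26.2, 6.1 and 11.9 in the XEN arrays (limma adjusted p = 0.164). A floor at the limit made its XEN values equal, so the adjusted p of 0.00278 found there rests on no spread among them. Hes1, also a Notch target, read 96.1 and 169 ± 45.8 (0.249). In IM8A1-II none of the 11 was at least 2-fold above IM8A1-I on the log2 scale. Tlx2 came nearest at 0.96, with 17.8 units in IM8A1-I and 44.6 in IM8A1-II. Of the 11, 1 was at least 2-fold lower, against 2.47% of all tested probe sets. It was Dlx3 (-1.14), which lay under the limit in all XEN arrays.

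The bHLH partners of Id proteins gave 0 calls among 11 tested (1 higher and 1 lower with an unadjusted p below 0.05), with a median of 0.04. Against IM8A1-I, 1 of the 11, Hand1, was at least 2-fold higher in IM8A1-II (1.34 in log2). Hand1, which is also among the trophoblast markers and is named after its values were seen, read 64.5 units in ES and 20.8, 68.9 and 50.6 in XEN. Tcf12, an E protein that Id proteins bind, read 134 units in ES and 267, 222 and 315 in XEN (limma adjusted p = 0.109). The E protein genes Tcf3 and Tcf4, named after their values were seen, read 99.9 and 108 in ES and 103 ± 7.06 and 72.7 ± 6.07 in XEN. Neurod1, a neuronal bHLH factor, was dim at 34.1 units in ES and 6.63 ± 1.88 in XEN (0.0897, and 0.0132 to 0.212 over the alternatives). The lowest of these came with the floor at the limit, which made its XEN values equal.

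**Figure D4:**
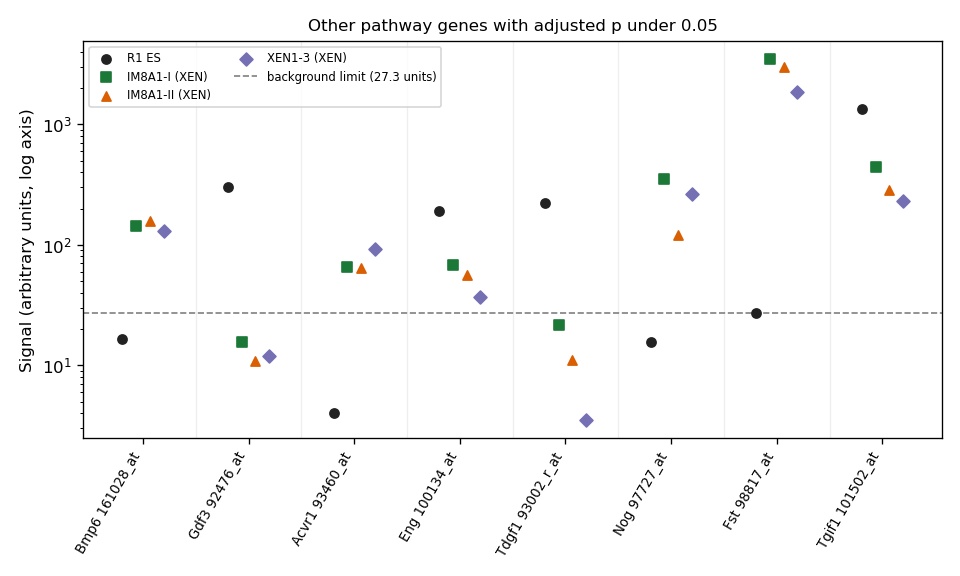
Signal (log axis, arbitrary units) on the 4 arrays of the 8 other pathway genes with an adjusted p under 0.05, with the background limit of 27.3 units dashed. Bmp6, Acvr1, Nog and Fst are higher in all 3 XEN arrays than in ES, and Gdf3, Eng, Tdgf1 and Tgif1 are lower.

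The genes whose profile over the 4 arrays was nearest to Bmp4 93455_s_at, by root mean square distance of centred log2 values, were Actl6a (0.039), Fyn (0.047) and Smarcc1 (0.050). Actl6a, a subunit of chromatin remodelling complexes, read 654 units in ES and 186, 209 and 244 in the XEN arrays, and Smarcc1, of the same family of complexes, read 642, 184, 188 and 246. Fyn, a Src family kinase, was dimmer, at 36.0 units in ES and 2.9, 3.4 and 7.9. With 4 arrays such nearness describes a high ES value and 3 ordered XEN values.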

How the data were processed

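The values of the 12488 probe sets were deposited as linear intensity, with no record of the summarising software in the labels or run records, and the 2% trimmed mean was 150.1 on each array as deposited. Run records were read for chip lot, run day and fluidics messages. Arrays were brought to a common trimmed mean (factor 1.00), 10.5 units (the 25th percentile) were added and log2 was taken. The 66 control probe sets were left out, and 8582 with at least 1 array at the limit (27.3 units) were tested with limma 3.58.1 in R 4.3.3 (variance trend, 2 residual degrees of freedom, prior 3.76), two-sided, with Benjamini-Hochberg adjustment and a threshold of 0.05. Where a whole group lay under the limit, or ES did and the XEN mean did not, the bound divides the brighter group's geometric mean by the limit. The number of arrays limits the precision. Code was tested on simulated data.

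Symbols came from the platform annotation: 10833 probe sets had 1 symbol, 396 several and 1193 none. All 10 members matched RefSeq's gene table by gene ID. Members and lists were chosen with earlier results of these data known. All member probe sets are named, and from each list every called gene and up to 2 more with the smallest p. For a called member, the 3 genes nearest in profile are given. A list gene is represented by its brightest probe set. Alternatives covered offset, floor, filter, scaling, variance trend and leaving out arrays. Figures were drawn with matplotlib 3.10.9.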

Additional observations from a re-analysis of the deposited data

How the results depend on the processing

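No paired analysis was possible because the ES group has 1 array. The count of member probe sets called lower in XEN, 2 in the main analysis, was 1 with the IM8A1 arrays averaged first, with dim probe sets kept and with a floor at the limit, and 1 to 2 when an XEN array was left out. The count called higher was 0, and 0 to 2 when an XEN array was left out (2, Bmp2 and Id2, without XEN1-3). Of the other pathway genes, 4 higher and 4 lower, values raised to the limit gave 2 higher, and leaving out an array gave 3 to 6 higher and 2 to 5 lower. Over all probe sets, 479 higher and 433 lower became 240 higher with a floor at the limit and 190 to 797 higher and 179 to 725 lower without an XEN array.

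Leaving out an XEN array gave a log2 difference of -0.77 to 0.12 for Id1, which changed sign without IM8A1-I, and of -0.24 to 0.38 for Id4, which changed sign without XEN1-3, none past the threshold. Among XEN arrays, the 3 member probe sets at least 2-fold higher in IM8A1-II than in IM8A1-I became 2 when the offset was the 50th percentile. For XEN1-3 against IM8A1-I, 1 higher and 1 lower became 0 and 0 with that offset, 3 and 2 when the offset was the 5th percentile, and 2 lower with median scaling or values raised to the limit. Raising values to the limit removes differences below it by construction. Where all XEN values of a probe set lie under the limit, it also removes their spread, so a low p there is no check. Fewer arrays leave fewer degrees of freedom, and without XEN1-3 the spread is only that between cultures of the IM8A1 line. For the other settings the cause was not tested.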
